A study of Mus musculus with 7 samples.

Results

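The genes described are the pore-forming and auxiliary subunits of voltage-gated calcium and sodium channels, chosen by symbol (names starting with Cacna, Cacnb or Cacng, and names of the form Scn, number, a or b). The table of 18335 gene rows holds 37 of them. They fall into 10 calcium channel α1 (pore) genes, 4 α2δ genes, 4 β genes, 7 γ genes, 8 sodium channel α (pore) genes and 4 sodium channel β genes. Of the 37, 30 passed the filter for testing, which asked for at least 1 TPM in at least 2 libraries (TPM is transcript abundance per gene length, scaled to a fixed total per library).

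RNA came from mouse hypothalamus at embryonic stage E15.5, from fluorescently sorted neurons of dissected arcuate nuclei, the ventral hypothalamic region that controls feeding. Pomc neurons (4 libraries) make proopiomelanocortin, from which appetite-suppressing peptides are cut, and Npy neurons (2 libraries used) make neuropeptide Y, which promotes feeding. A further Npy column was set aside because it equals the mean of the other 2 times a whole percent in all 15223 genes with a value. The sources used here do not name the reporter behind the sort, the mouse strain, any pooling of embryos or the origin of a replicate. The p-values therefore measure the spread between libraries, which may be technical.

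Voltage-gated calcium channels open on depolarization and let in calcium, which triggers transmitter and peptide release and feeds into gene expression. The α1 subunit forms the pore and sets the channel class, the cytosolic β subunit and the extracellular, membrane-anchored α2δ subunit bring the channel to the surface, and most γ subunits act in neurons as partners of AMPA-type glutamate receptors. Voltage-gated sodium channels carry the rising phase of the action potential, with an α subunit as the pore and β subunits as small membrane proteins that tune gating and adhesion. In arcuate neurons both kinds of channel take part in firing and peptide release.

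The gene used to name the Pomc population was higher in its own libraries, at 770.3, 351.5, 396.6 and 552.7 TPM in Pomc replicates 1 to 4 against 24.0 and 59.4 TPM in Npy replicates 1 and 2. Npy reached 728 and 513 TPM in Npy replicates 1 and 2 and 2.11 to 152 TPM in the Pomc libraries. By limma the Pomc difference passed the threshold (adjusted p = 0.00454) and the Npy difference did not (adjusted p = 0.418). Agrp, also listed as a marker of the sorted neurons, did not separate the groups. It stood at 1.03, 3.67, 6.82 and 0 TPM in Pomc replicates 1 to 4 and at 5.53 and 1.75 TPM in Npy replicates 1 and 2. The 6 neuronal markers summed to 3915 to 4704 TPM in the Pomc libraries and 3352 and 2843 TPM in Npy replicates 1 and 2. Of these, 3 (Tubb3, Stmn2 and Elavl4) were higher in every Pomc library, while Snap25, Syt1 and Map2 overlapped. All 6 oligodendrocyte precursor markers were higher in both Npy libraries, where they summed to 207 and 228 TPM against 0.444 to 2.64 TPM in the Pomc libraries, with Olig2 and Cspg4 at 0 in every Pomc library. The 4 cycling cell markers summed to 83.4 and 27.5 TPM in Npy replicates 1 and 2 and to 1.79 to 22.8 TPM in the Pomc libraries, with 2 of 4 (Top2a and Ccnb1) higher in both Npy libraries. Of the 6 radial glia and astrocyte markers, 2 were higher in both Npy libraries, though the sums overlapped. These were Fabp7 (323 and 176 TPM against 1.61 to 61.6 TPM) and Nes (49.0 and 40.05 TPM against 14.6 to 26.4 TPM). Vim leaned the other way with overlap, at 201 to 530 TPM in the Pomc libraries against 206 and 155 TPM in Npy replicates 1 and 2. Slc1a3, Aldh1l1 and Hes1 overlapped as well. The 3 red blood cell markers were at 0 in both Npy libraries and in Pomc replicate 1 and summed to 24.7, 1.44 and 81.4 TPM in Pomc replicates 2 to 4. The 4 microglial markers summed to 42.3 TPM in Pomc replicate 4 and to at most 2.27 TPM in the other 5 libraries. Between 12493 and 14933 genes were above 0 per library. TPM values keep no read depth, so no counting error can be given.

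The α2δ genes differed most between the populations, and in opposite directions. Cacna2d1, whose product is the best studied α2δ subunit and a binding site of gabapentin, was 7.85-fold higher in Pomc neurons by the ratio of group means. Cacna2d3, which encodes another α2δ subunit, had a mean 3.21-fold higher in Npy neurons, a difference that did not pass the threshold. Cacna2d2, also bound by gabapentin-type drugs, was abundant in both. The 250 bases before the RefSeq start of the 2 genes with opposite differences are shown, 5′ to 3′ on the gene's strand, because these stretches face the start of each transcript (RefSeq sequences, GRCm38.p6, chr5:15934441-15934690 on the plus strand for Cacna2d1 and chr14:29721865-29722114 on the minus strand for Cacna2d3). Capitals mark the GC box GGGCGG on either strand, and neighbouring matches can overlap or abut.
Cacna2d1: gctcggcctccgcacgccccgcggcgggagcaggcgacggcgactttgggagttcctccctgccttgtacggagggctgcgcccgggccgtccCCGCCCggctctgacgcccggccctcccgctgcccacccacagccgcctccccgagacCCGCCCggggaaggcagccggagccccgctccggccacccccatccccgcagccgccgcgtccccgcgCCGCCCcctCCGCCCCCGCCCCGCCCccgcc
Cacna2d3: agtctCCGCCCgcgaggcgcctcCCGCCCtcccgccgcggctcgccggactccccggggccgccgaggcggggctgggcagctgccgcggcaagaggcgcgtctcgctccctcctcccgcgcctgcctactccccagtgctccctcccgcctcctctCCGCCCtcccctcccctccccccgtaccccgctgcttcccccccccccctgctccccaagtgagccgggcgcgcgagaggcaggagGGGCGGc

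Both stretches are rich in G and C, at 82.4% for Cacna2d1 and 80.0% for Cacna2d3, where the median over 32851 RefSeq promoters of the same length is 52.4%. The GC box occurs 6 times before Cacna2d1 and 4 times before Cacna2d3, and 32.7% of all promoters hold at least 1. The E-box CAGCTG, a core bound by helix-loop-helix factors, has 1 match before Cacna2d3 and none before Cacna2d1 (13.0% of all promoters hold it). The letters AAGGTCA, a core bound by steroidogenic factor 1, and TATAAA, the TATA box, are found in neither (4.08% and 12.4% of all promoters). A match is only a match of letters. RefSeq promoters were matched by symbol for 27 of the 37 genes.

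Cacna2d1 (chromosome 5, 15934691 to 16374511, GRCm38, plus strand) stood at 129.5, 199, 186 and 198.5 TPM in Pomc replicates 1 to 4 and at 28.5 and 17.0 TPM in Npy replicates 1 and 2. Every Pomc library lay above both Npy libraries, and the lowest Pomc value came from replicate 1. The mean was 178 ± 33.1 TPM (SD, n = 4) in Pomc neurons and 22.7 TPM in Npy neurons. On log2(TPM + 1) the difference was 2.94 ± 0.28 (SE), with a 95% interval of 2.32 to 3.56, and passed the threshold by limma with Benjamini-Hochberg adjustment over all tested genes (adjusted p = 0.00303). Only 7 of 13845 tested genes had a smaller p. The two-sided exact permutation test over the 15 ways to draw 4 of 6 libraries gave p = 0.0667, the smallest value it can give. In RNA of sorted pools, more cells with a transcript and more transcript per cell cannot be told apart. The locus is overlapped by 3 predicted gene models, 2 of them on the opposite strand. Of the neuronal markers, 3 of 6 were also higher in every Pomc library, and the oligodendrocyte precursor and cycling cell sums were lower. Their part in this difference was not tested. Without Pomc replicate 4, the library with the highest microglial and red blood cell sums, the difference was 2.88. Red blood cell markers remained in Pomc replicates 2 and 3 (24.7 and 1.44 TPM), and the part of these cells was not tested.

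Cacna2d1 was the only channel subunit to pass, 1 of 30 tested, where 0.412% of all 13845 tested genes passed (57 genes). It was higher in Pomc neurons, as were 0.289% of all tested genes. No subunit passed in the direction of Npy neurons, where 0.123% of all tested genes did. Those were 17 genes, and leaving out either Npy library brought their number to 1. At an unadjusted p under 0.05 there were 3 subunits of 30 (Cacna2d1, Cacna2d3 and Cacna1g), where 7.36% of all tested genes reached that level. The last 2 of them were higher in Npy neurons, as were 3.28% of all tested genes at that level. Over the 30 subunits the median log2 difference was -0.093, beside 0.015 over all tested genes, and 16 of 30 differences were below 0, beside 48.7% of all tested genes. The median absolute difference was 0.38 beside 0.34, and 4 of 30 subunits differed by at least 1 on the log2 scale, beside 13.9% of all tested genes.

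**Figure D1:**
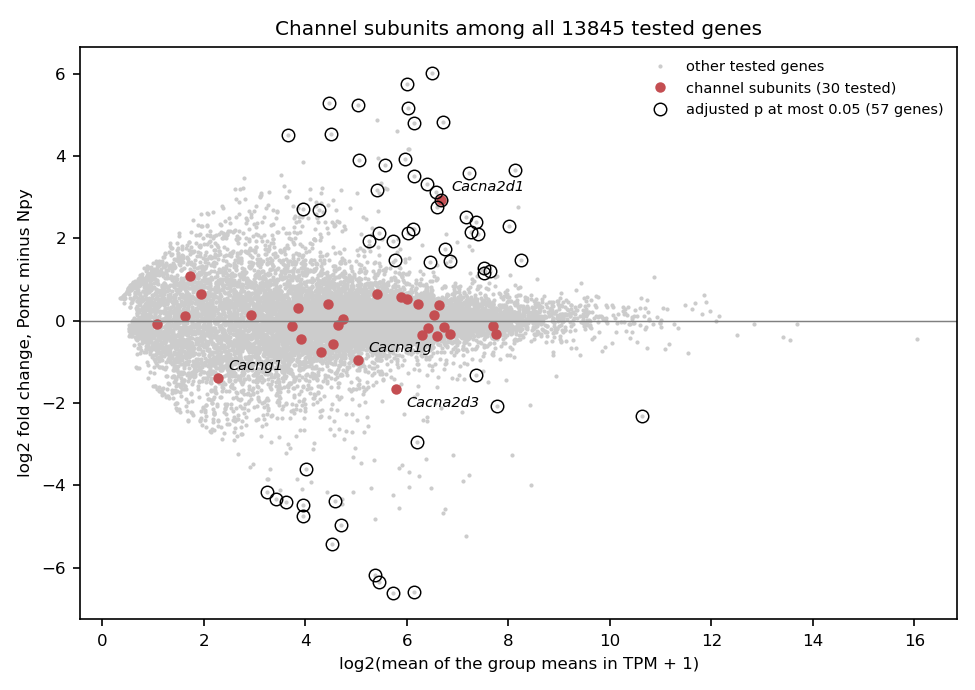
Log2 fold change (Pomc minus Npy, on TPM + 1) of every tested gene against the log2 of its mean level, with the 30 tested channel subunits in red and genes past the threshold circled. Cacna2d1 is the only red point with a circle, at 2.94, and Cacna2d3 is the lowest red point, at -1.65.

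Cacna2d3 (chromosome 14, 28904943 to 29721864, minus strand) stood at 34.7, 17.0, 23.1 and 28.7 TPM in Pomc replicates 1 to 4 and at 101 and 64.6 TPM in Npy replicates 1 and 2. Every Pomc value lay below both Npy values. The log2 difference was -1.65 ± 0.36 (SE), with an interval of -2.46 to -0.85 and an adjusted p of 0.151 by limma. The gene Lrtm1 and several predicted gene models lie inside the Cacna2d3 locus on the opposite strand, and the sources used here do not say whether the authors' counting used strand. Oligodendrocyte precursor markers and the sum of cycling cell markers were higher in the same 2 Npy libraries, and their part in the difference was not tested.

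Cacna2d2 (chromosome 9, 107399612 to 107529343) stood at 97.1, 132, 100.3 and 83.3 TPM in Pomc neurons and at 131 and 122 TPM in Npy replicates 1 and 2. These ranges overlapped, and the log2 difference of -0.32 ± 0.22 (SE) did not pass (limma adjusted p = 0.819, interval -0.81 to 0.18). Cacna2d4, an α2δ gene known from photoreceptors, was at most 0.281 TPM in Pomc neurons and at 1.45 and 0 TPM in Npy replicates 1 and 2, and was not tested.

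Summed over the 4 genes, α2δ transcripts reached 261 to 348 TPM in the Pomc libraries and 263 and 204 TPM in Npy replicates 1 and 2, so the sums overlapped narrowly. The shares of Cacna2d1, Cacna2d2 and Cacna2d3 did not overlap between the groups, while the small share of Cacna2d4 did. Cacna2d1 made up 49.6, 57.2, 60.1 and 63.9% of α2δ transcripts in Pomc replicates 1 to 4 and 10.8 and 8.31% in the Npy libraries. Cacna2d2 made up 26.8 to 37.9% in the Pomc libraries against 50.03 and 60.0%, and Cacna2d3 4.87 to 13.3% against 38.6 and 31.7%. The leading α2δ transcript was therefore Cacna2d1 in each Pomc library and Cacna2d2 in each Npy library. These shares follow from the values of the 4 genes and were not tested separately.

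**Figure D2:**
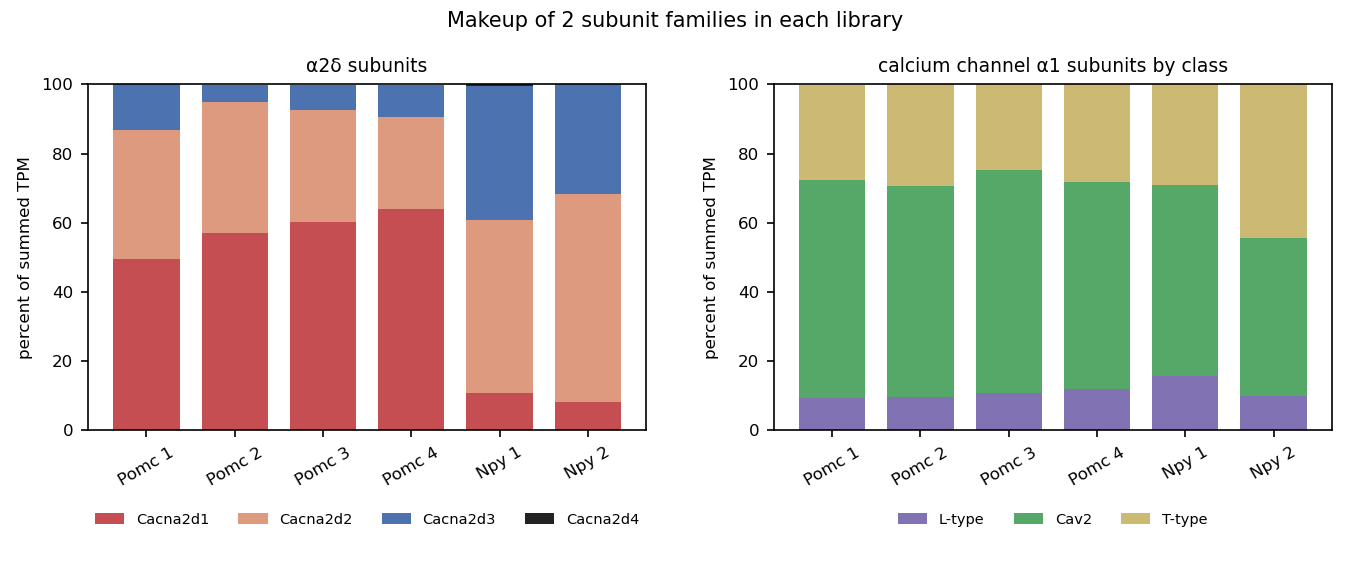
Share of summed TPM taken by each α2δ gene (left) and by each class of calcium channel α1 gene (right), in percent, with 1 bar per library. Cacna2d1 takes 49.6 to 63.9% of the α2δ bars of Pomc neurons and 8.31 and 10.8% of those of Npy neurons, while the T-type share of the α1 bars is 24.9 to 29.4% in Pomc neurons and 29.0 and 44.4% in Npy replicates 1 and 2.

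Among the calcium channel pore genes, the R-, N- and P/Q-type genes together held the largest share in each library, but in Npy replicate 2 the T-type genes came close to it (44.4 against 45.6%) and the T-type gene Cacna1h was the most abundant single pore gene there, at 83.7 TPM. Cacna1e, the pore of R-type channels, stood at 75.7, 66.7, 96.4 and 71.7 TPM in Pomc replicates 1 to 4 and at 118 and 65.0 TPM in Npy replicates 1 and 2, and the Npy values enclosed all Pomc values. Its log2 difference was -0.18 ± 0.28 (SE, limma adjusted p = 0.913). Cacna1b, the pore of N-type channels, which trigger release at many synapses, ranged from 64.8 to 90.2 TPM in the Pomc libraries and stood at 84.6 and 44.6 TPM in Npy replicates 1 and 2. Cacna1a, the pore of P/Q-type channels, ranged from 56.7 to 92.0 TPM against 67.7 and 36.7 TPM. None of these 3 genes separated the groups.

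T-type channels open near the resting potential and support burst firing. Cacna1g, a T-type pore gene (chromosome 11, 94408391 to 94474198, minus strand), stood at 16.3, 25.8, 19.1 and 25.3 TPM in Pomc replicates 1 to 4 and at 38.0 and 46.8 TPM in Npy replicates 1 and 2. Every Pomc value lay below both Npy values, but the log2 difference of -0.96 ± 0.35 (SE) did not pass (limma adjusted p = 0.559, interval -1.74 to -0.18). The oligodendrocyte precursor markers and the cycling cell sum were also higher in both Npy libraries, and their part in the Cacna1g difference was not tested. Cacna1h, the most abundant T-type gene, stood at 60.8, 87.3, 77.5 and 51.5 TPM against 90.4 and 83.7 TPM, with overlap through Pomc replicate 2. Cacna1i was lower, at 7.11 to 17.3 TPM against 13.0 and 11.99 TPM. Summed T-type transcripts were 93.2 to 120.2 TPM in the Pomc libraries and 141 and 142.5 TPM in Npy replicates 1 and 2, without overlap.

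L-type channels couple activity to gene expression. Cacna1c ranged from 13.1 to 20.9 TPM in the Pomc libraries and stood at 34.7 and 19.6 TPM in Npy replicates 1 and 2. Cacna1d ranged from 18.5 to 24.6 TPM against 40.9 and 12.6 TPM, so that its Npy values enclosed all Pomc values. Cacna1s, the pore of skeletal muscle channels, and Cacna1f, known from retina, reached at most 0.841 and 0.0813 TPM in any library and were not tested. The R-, N- and P/Q-type genes together took 59.8 to 64.3% of summed α1 transcripts in the Pomc libraries and 55.3 and 45.6% in the Npy libraries, and the L-type genes 9.24 to 12.03% and 15.7 and 10.1%.

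**Figure D3:**
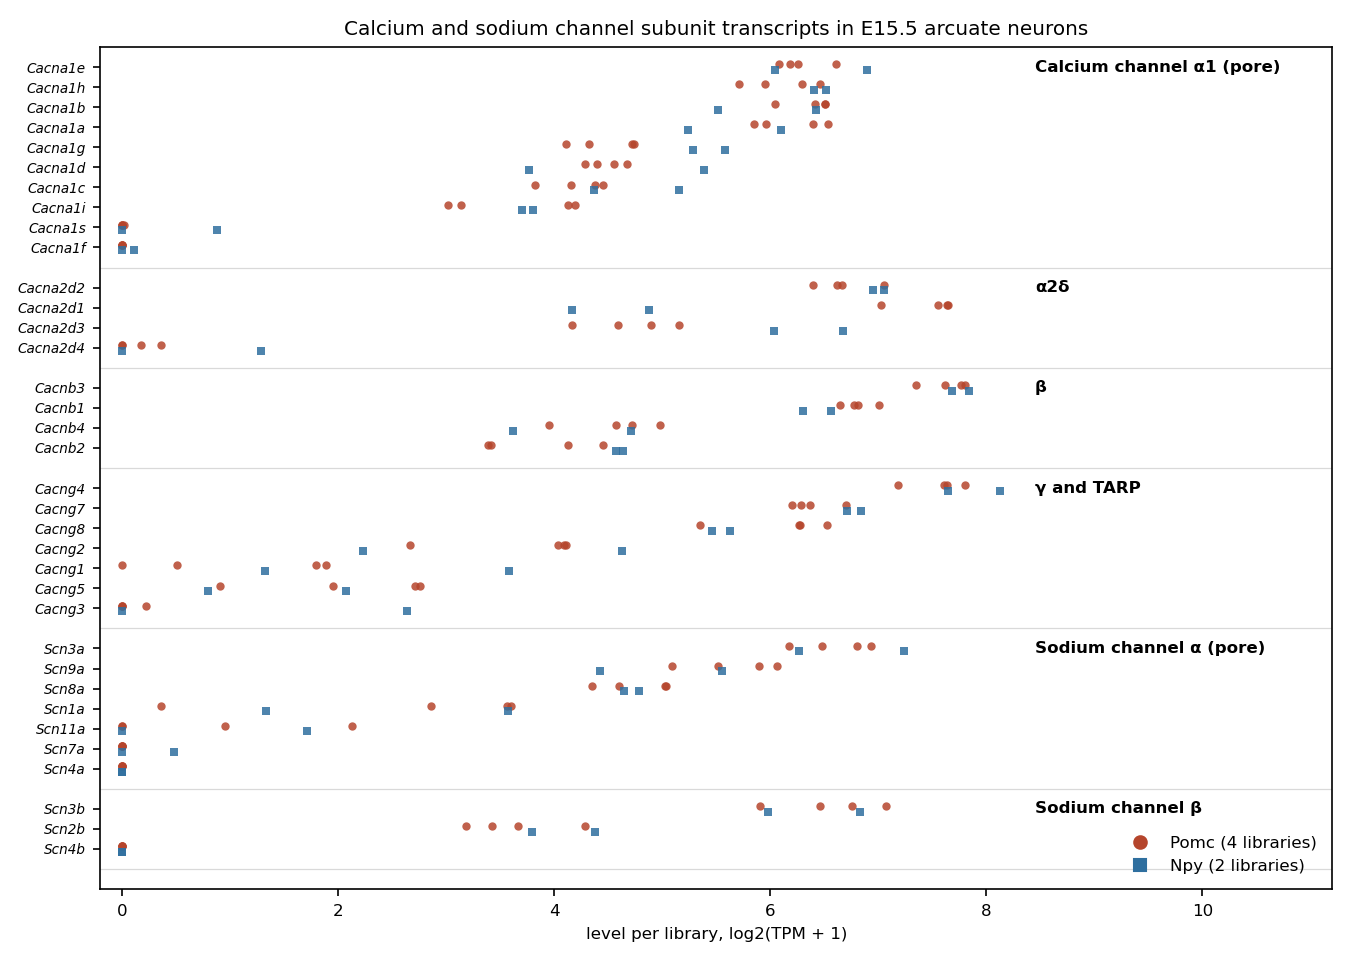
Level of 35 of the 37 channel subunit genes in each library, as log2(TPM + 1), grouped by family and ordered within a family by the mean of the group means, with circles for the 4 Pomc and squares for the 2 Npy libraries. Cacna2d1 and Cacna2d3 are the rows with the widest gap between circles and squares, in opposite directions, and 13 genes are at 20 TPM or more in every library.

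The β subunits, cytosolic chaperones of the α1 pore, were led by Cacnb3 and then Cacnb1 in each library. Cacnb3 was the most abundant in every library, at 222, 216.5, 195 and 162 TPM in Pomc replicates 1 to 4 and at 204.5 and 228 TPM in Npy replicates 1 and 2, and the groups overlapped (log2 difference -0.13 ± 0.19 SE, limma adjusted p = 0.911, interval -0.55 to 0.30). Cacnb1 followed, with 99.0 to 128 TPM in Pomc neurons and 93.5 and 78.2 TPM in Npy replicates 1 and 2. All Pomc values of Cacnb1 lay above the Npy values by a small margin, and its adjusted p was 0.773. Cacnb2 was lower in every Pomc library (9.47 to 20.9 TPM) than in the Npy libraries (23.9 and 22.8 TPM), with an adjusted p of 0.805. Cacnb4 ranged from 14.5 to 30.5 TPM against 25.2 and 11.3 TPM. Summed over the family, the β transcripts reached 330 to 365 TPM in the Pomc libraries and 347 and 341 TPM in Npy replicates 1 and 2, so the Npy sums fell within the Pomc range.

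The γ family is named after a muscle calcium channel subunit, and several of its members, the TARPs, carry AMPA receptors to the synapse. Cacng4, a TARP, was the most abundant γ gene in all 6 libraries, at 198, 194.5, 223 and 144.5 TPM in Pomc replicates 1 to 4 and at 199 and 279 TPM in Npy replicates 1 and 2. The groups overlapped, and the log2 difference was -0.33 ± 0.23 (SE, limma adjusted p = 0.815). Cacng7, a related TARP, stood at 72.5 to 103.1 TPM against 114 and 103.4 TPM, with both Npy libraries just above the highest Pomc library. Cacng8, also a TARP, stood at 75.9, 91.4, 39.9 and 76.3 TPM against 42.9 and 48.5 TPM, and only Pomc replicate 3 lay below the Npy libraries. Cacng2, or stargazin, ranged from 5.35 to 16.3 TPM against 23.7 and 3.70 TPM. Summed over the family, γ transcripts reached 309.6 to 387.4 TPM in the Pomc libraries and 389.4 and 446.6 TPM in Npy replicates 1 and 2. As with the T-type sums, the groups did not overlap, here by a narrow margin.

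The remaining γ genes were low. Cacng5 ranged from 0.880 to 5.77 TPM in the Pomc libraries against 3.22 and 0.733 TPM. Cacng1, the γ subunit of skeletal muscle channels, reached 10.997 TPM in Npy replicate 2 and at most 2.71 TPM elsewhere, so its difference rested on a single library. Of the skeletal muscle markers, the table holds Acta1, at 0 to 6.60 TPM over the 6 libraries and 2.71 TPM in Npy replicate 2. The 5 pericyte and smooth muscle markers summed to 14.8 TPM in Npy replicate 2 and to at most 2.80 TPM elsewhere. Kcnj8 (7.80 TPM) and Pdgfrb (4.75 TPM) led that sum in Npy replicate 2, where Acta2 and Tagln were at 0. The part of such cells in the Cacng1 value was not tested. Cacng3 reached 5.23 TPM in Npy replicate 1 and at most 0.167 TPM in the other libraries, and was not tested.

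No sodium channel pore gene passed the threshold. Scn3a, the pore gene typical of embryonic brain, led in every library at 71.3, 121, 110.4 and 88.5 TPM in Pomc replicates 1 to 4 and at 149.9 and 76.0 TPM in Npy replicates 1 and 2. The groups overlapped (log2 difference -0.15 ± 0.31 SE, limma adjusted p = 0.934, interval -0.86 to 0.55). Scn9a, best known from pain-sensing neurons, ranged from 33.1 to 65.9 TPM in the Pomc libraries against 46.0 and 20.5 TPM. Scn8a, a main pore gene of the mature axon initial segment, ranged from 19.4 to 31.8 TPM against 26.6 and 24.0 TPM. Scn2a1, the older symbol of Scn2a, falls outside the naming rule and stood at 47.6, 37.7, 36.9 and 47.7 TPM against 42.9 and 24.0 TPM, with a log2 difference of 0.38 ± 0.32 (SE, limma adjusted p = 0.851).

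With Scn2a1 included, Scn3a made up 38.0 to 48.3% of summed sodium channel pore transcripts in the Pomc libraries and 53.6 and 51.7% in the Npy libraries, and Scn9a 17.7 to 28.8% and 16.4 and 13.9%. Scn3a, Scn2a, Scn1a, Scn9a and Scn7a lie in this order on chromosome 2, between 65457118 and 66784914. They share this neighbourhood but not their levels: Scn1a, the pore gene of fast-spiking adult interneurons, was at 0.281 to 11.1 TPM against 10.9 and 1.51 TPM, and Scn7a, which encodes a sodium-sensing relative, was at 0 in every library except Npy replicate 1 (0.393 TPM).

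Other sodium channel pore genes were low or at 0. Scn11a, a sensory neuron gene, reached at most 3.37 TPM. Scn4a, the skeletal muscle pore, was listed at 0 in all 6 libraries, as was Scn4b, which is a sodium channel β gene.

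Of the sodium channel β genes, Scn3b was the most abundant, at 134, 59.0, 87.0 and 107 TPM in Pomc replicates 1 to 4 and at 113 and 62.3 TPM in Npy replicates 1 and 2. The groups overlapped (log2 difference 0.14 ± 0.35 SE, limma adjusted p = 0.948). Scn2b ranged from 8.10 to 18.5 TPM against 12.8 and 19.8 TPM.

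**Figure D4:**
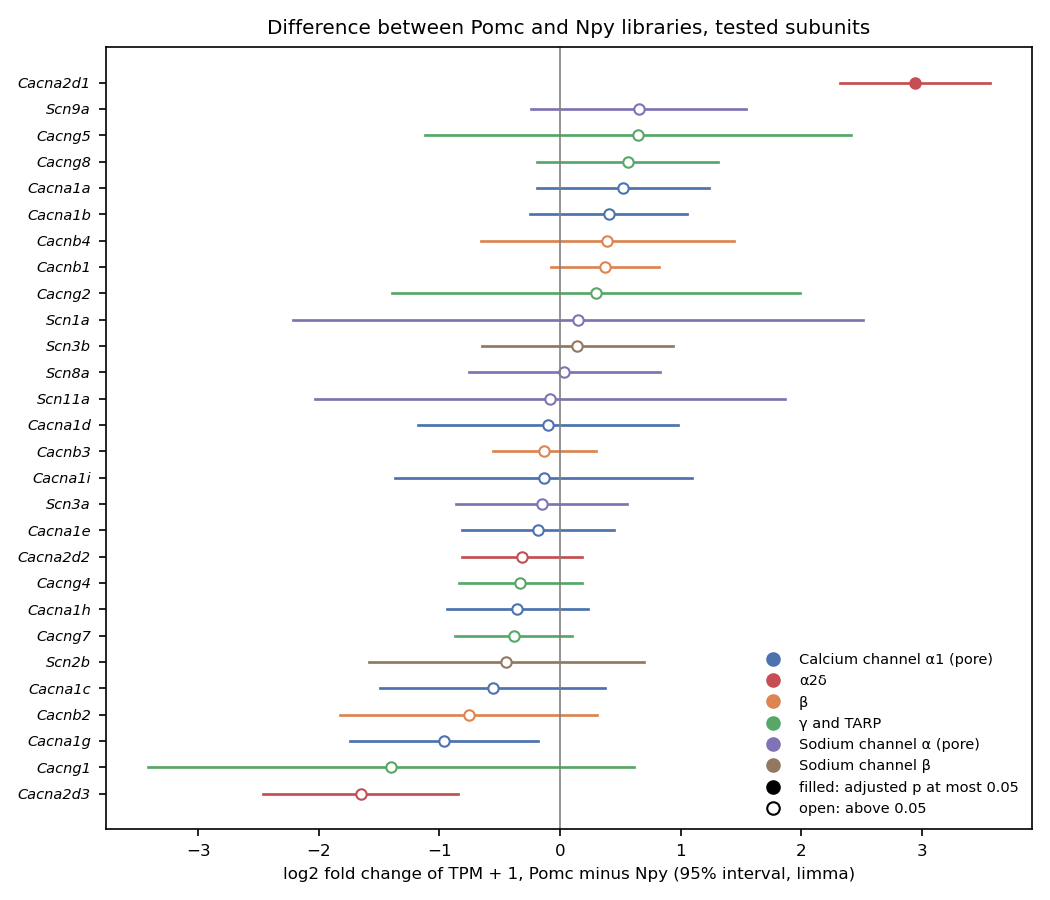
Log2 fold change of 28 of the 30 tested subunits on TPM + 1 (Pomc minus Npy) with its 95% interval from limma, coloured by family and ordered by size, filled where the adjusted p is at most 0.05. Cacna2d1 is the only filled point, at 2.94 (2.32 to 3.56), and the intervals of 25 of the other 27 subunits shown include 0.

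In all, 7 of the 30 tested subunits, or 23.3%, had groups that did not overlap, beside 15.9% of all tested genes. Every Pomc library was higher in 3 of 30, Cacna2d1 and Cacnb1 among them, beside 8.05% of all tested genes, and both Npy libraries were higher in Cacna2d3, Cacna1g, Cacnb2 and Cacng7, 4 of 30 beside 7.86%. For 10 subunits the 95% interval of the log2 difference lay inside -1 to 1. For the other 20, Cacna2d1 and the low Scn1a, Scn11a and Cacng5 among them, the interval reached or passed a 2-fold difference in at least 1 direction, so a test that was not passed does not show equal levels.

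The 2 Npy libraries differed from each other over these genes. Of the 30 tested subunits, 23 were higher in Npy replicate 1 than in replicate 2, or 76.7% beside 58.7% of all tested genes. The median log2 difference between the 2 libraries was 0.59 over the subunits and 0.16 over all tested genes. It touched 7 of 8 tested calcium pore genes, the exception being Cacna1g, and 5 of 6 tested sodium pore genes. Over the 4 Pomc libraries the median SD of log2(TPM + 1) was 0.38 for the subunits and 0.46 for all tested genes.

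Partners of the channels that are not subunits themselves did not pass the threshold. Of 44 listed regulators, anchors and effectors, 38 were tested, and none passed in either direction (0.412% of all tested genes did). Of the 38, 6 had an unadjusted p under 0.05, beside 7.36% of all tested genes. Of these 6, 5 were higher in Pomc neurons and 1 in Npy neurons, beside 4.08% and 3.28% of all tested genes. The groups did not overlap in 9 of the 38, beside 15.9% of all tested genes. The median log2 difference over the 38 was 0.049. Rem2 and Ank2 were among the 3 with the smallest p.

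Rem2, a GTPase that inhibits calcium channels through the β subunit, stood at 35.0, 34.8, 27.5 and 37.7 TPM against 48.4 and 105 TPM (log2 -1.07 ± 0.34, limma adjusted p = 0.438). Both Npy values lay above the Pomc values and differed widely from each other, and the difference was -1.61 without Npy replicate 1 and -0.52 without Npy replicate 2. Ank2, an ankyrin that anchors membrane proteins, stood at 328, 217, 296 and 303 TPM against 225 and 79.2 TPM (log2 1.08 ± 0.36, limma adjusted p = 0.493), with overlap through Pomc replicate 2. The size of the Ank2 difference rested on Npy replicate 2, since it was 0.33 (adjusted p = 0.9993) when that library was left out. It was 1.82, and passed (adjusted p = 0.0333), when Npy replicate 1 was left out instead. The sodium leak channel Nalcn and the sodium channel anchor Ank3 showed overlapping groups.

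Of 25 genes for calcium release from stores and calcium clearance, 21 were tested and 1 passed (0.412% of all tested genes did). Calb1, which encodes the calcium buffer calbindin, stood at 59.0, 69.5, 60.3 and 49.5 TPM in Pomc neurons and at 17.3 and 12.5 TPM in Npy replicates 1 and 2. All Pomc values lay above the Npy values (log2 1.93 ± 0.29, limma adjusted p = 0.026). The call of Calb1 ended without Pomc replicate 1, 2 or 3 or Npy replicate 2 (adjusted p of 0.103, 0.105, 0.126 and 0.272), with 1 prior variance for all genes (0.0725) and without the filter on low values (0.0512).

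The ryanodine receptor genes Ryr3 and Ryr2, which encode calcium release channels of the endoplasmic reticulum, were next by p. Ryr3 stood at 16.0, 41.0, 32.6 and 26.2 TPM against 12.6 and 10.8 TPM (log2 1.16 ± 0.44, limma adjusted p = 0.579). Ryr2 stood at 14.9, 10.8, 16.0 and 15.7 TPM against 10.2 and 1.66 TPM (log2 1.48 ± 0.65, limma adjusted p = 0.672), and the difference was 0.44 without Npy replicate 2 and 2.52 without Npy replicate 1. Neither passed, although the groups did not overlap in either gene. Such separation was found in 5 of the 21 genes, beside 15.9% of all tested genes. Every Pomc library was higher in 4 of the 21, beside 8.05% of all tested genes. Over the 21 genes the median log2 difference was -0.13.

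The 5 genes whose log2 levels followed Cacna2d1 most closely over the 6 libraries were Ercc3 (Pearson r = 0.995), Sox2ot (0.993), Nell1 (0.992), Tox3 (0.991) and Rnf128 (0.988). The values are descriptions over 6 points that share the split into 2 groups, and were chosen as the highest among 13845 genes. Sox2ot, a long noncoding RNA that overlaps Sox2, stood at 129.5, 203, 193 and 153 TPM in Pomc neurons and at 21.1 and 16.0 TPM in Npy replicates 1 and 2. Nell1, which encodes a secreted protein, stood at 79.3, 89.1, 81.6 and 79.6 TPM against 25.0 and 17.0 TPM. Ercc3, a DNA repair helicase gene, varied at a much smaller scale, from 47.5 to 50.1 TPM against 41.0 and 39.3 TPM.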

How the data were processed

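The authors deposited 1 table of 7 sample columns that, per the file header, names no unit. The values the authors deposited were read as TPM, that is, already divided by gene length and brought to the same total in each library, because 6 columns sum to 1000000 and short RNA genes hold the highest values. Libraries were made from 1 ng of total RNA with a stranded total RNA kit, per the labels' protocols. The submitters' processing notes name HISAT2, mm10 and edgeR 3.8, with no role. The sources used here do not state how reads were counted, with which annotation, or how gene length was defined, so genes that overlap others are uncertain. The column of Npy replicate 3 equals the mean of replicates 1 and 2 times a whole percent from 95 to 105 in 15223 of 15223 genes (within 1e-04 percentage points) and was left out. The 4 rows of repeated symbols were also left out.

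Differences were tested on log2(TPM + 1) with limma 3.58.1 (R 4.3.3), its prior variance set to follow the mean level (trend), over 13845 genes with at least 1 TPM in at least 2 libraries. P-values are two-sided, adjusted by Benjamini-Hochberg over all tested genes, with a threshold of 0.05. The scale understates changes of low genes. The fit was tested on simulated data. A plan for counts was replaced by this test because the values are TPM. Gene positions are from GENCODE M21 (GRCm38).

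Values in every library are given for members at an unadjusted p under 0.05, for members whose groups do not overlap with a log2 difference of at least 1, and for the most abundant member of each family. The list genes named are those that passed and the 3 with the smallest p. Nalcn, Ank3 and the other members given by library were chosen after their values were seen. Members and lists were chosen with earlier results of these data known. Alternatives covered the pseudocount, filter, scaling, prior variance, libraries used and replicate numbers. The values of a few genes are not reported here.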

Additional observations from a re-analysis of the deposited data

Results flagged for a closer look

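Of the 30 tested subunits, Cacng2 had a Pomc library far from the other 3. Pomc replicate 2 had 5.35 TPM, while replicates 1, 3 and 4 had 15.4 to 16.3 TPM. Chance alone gives such a gap in about 1 in 20 groups of this size, so 1 among 30 genes is not unusual. Its Npy libraries were further apart still, at 23.7 and 3.70 TPM.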

How the results depend on the processing

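The log2 difference of Cacna2d1 kept its direction in every alternative and its call in all but 1. It ranged from 2.58 to 3.30 when a single library was left out. The replicate numbers were not shown to pair the libraries (same-numbered libraries deviated with r = -0.044 and -0.033, and the labels name no shared animal or day). With a replicate block, Cacna2d1 stood at 2.81 (limma adjusted p = 0.0667) and Cacnb3 turned to 0.021. In that fit 0 subunits and 0 calcium release and clearance genes passed (Calb1 at limma adjusted p = 0.273), and 12 genes passed over the table. Pomc replicates 3 and 4 have no Npy library of the same number there, so only replicates 1 and 2 set its differences. With all 7 columns, 2 subunits passed, the second being Cacna2d3 (adjusted p = 0.0226), and 205 genes in all. The 57 genes became 37 with a pseudocount of 0.1, 33 without the filter and 22 to 69 when a library was left out (without either Npy library, only 1 was higher in Npy neurons). Leaving out a library gave 0 to 1 partner genes (Ank2, which passed only without Npy replicate 1) and 0 to 1 calcium release and clearance genes. The latter were also 0 without the filter and with 1 prior variance for all genes. The median over the subunits ranged from -0.23 to 0.33 with a library left out, and was above 0 only without Npy replicate 1. With a library left out, Cacna1e ranged from -0.61 to 0.24 and Scn3a from -0.64 to 0.33, both above 0 only without Npy replicate 1. Scn3b ranged from -0.28 (without Npy replicate 2) to 0.57, and was also below 0 without Pomc replicate 1 (-0.031). The cause of these changes was not tested. With 1 Npy library left out, that group is a single library, assumed to vary like the other group.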
